A study of Homo sapiens with 12 samples.

Results

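The genes described here are 10 regulators of the G1 phase of the cell cycle, namely the D cyclins CCND1, CCND2 and CCND3, the kinase CDK4, and the kinase inhibitors CDKN1B, CDKN1C, CDKN2A, CDKN2B, CDKN2C and CDKN2D. They were taken by symbol from the gene count files, which held all 10 among 26364 genes, and 12858 genes including the 10 had enough counts to be tested. CDKN2A met that requirement only through its counts in both wild type libraries and GFP replicate 1, so it entered the test through the groups in which it is high.

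Cells leave G1 when D cyclins bind and activate CDK4 or its relative CDK6, and the active kinase phosphorylates the retinoblastoma protein, which releases E2F transcription factors onto genes of DNA replication. The INK4 proteins (CDKN2A to CDKN2D) bind CDK4 and CDK6 and keep cyclins off them, whereas the CIP/KIP proteins p27 (CDKN1B) and p57 (CDKN1C) bind whole cyclin and kinase complexes. In colon epithelium and its tumours CCND1 is known as a gene that responds to Wnt and RAS signalling, and CDKN2A as a gene that is often silenced by promoter methylation.

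Polyadenylated RNA came from RKO, an established human colon carcinoma line grown in McCoy's 5A medium with serum, with 2 libraries in each of 6 groups. The groups were wild type cells (WT), the CRISPR/Cas9 PRDM1 knockout derivatives KO2 and KO5, derivatives with PRDM1 alpha or PRDM1 beta overexpressed, and their control, a derivative with GFP overexpressed. PRDM1 encodes a zinc finger repressor best known from plasma cells. All groups share the RKO background. The labels give neither the promoter that drives the transgenes nor whether a derivative is 1 clone, nor do they say that replicate libraries stem from separate cultures, so that p-values measure the spread between these libraries only.

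PRDM1 itself was near 0 without a transgene. It had 4 and 4 counts in WT, 0 and 1 in KO2, 1 and 1 in KO5, and 2 and 6 with GFP, levels too low to check the knockouts from RNA. The alpha derivative held 487 and 480 CPM of PRDM1 (CPM are counts scaled to a total of 1000000 gene counts per library) and the beta derivative 1175 and 1176 CPM, so the forms also differ in transgene level. Gene counts per library ranged from 19058967 to 55961821. The epithelial keratins KRT8 (493 to 799 CPM) and KRT18 (299 to 376 CPM) and the intestinal factor CDX2 (12.8 to 17.5 CPM) were present in every library, whereas EPCAM and CDX1 had no counts and KRT19, CDH1, VIL1, KRT20 and MUC2 had at most 2. Of 10 markers of leukocytes, endothelium and fibroblasts, COL1A1 (5.03 to 10.0 CPM) and PDGFRB (2.25 to 6.51 CPM) were the highest, and the list summed to 8.37 to 12.8 CPM.

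Per kilobase of transcript, CDK4 was the most abundant of the 10 in wild type cells, at 115 and 112 CPM per kb in the 2 libraries. CCND1 followed at 90.1 and 91.4 CPM per kb, then CCND2 at 51.7 and 52.6 and CCND3 at 29.8 and 32.2. The inhibitors lay far lower. CDKN1B led them at 13.4 and 12.9 CPM per kb, ahead of CDKN2D (6.43 and 6.13), CDKN2C (5.78 and 6.15), CDKN2B (5.29 and 5.40) and CDKN1C (4.49 and 4.90). CDKN2D and CDKN2C overlapped in this order, and CDKN2A stood last at 0.363 and 0.418 CPM per kb.

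**Figure D1:**
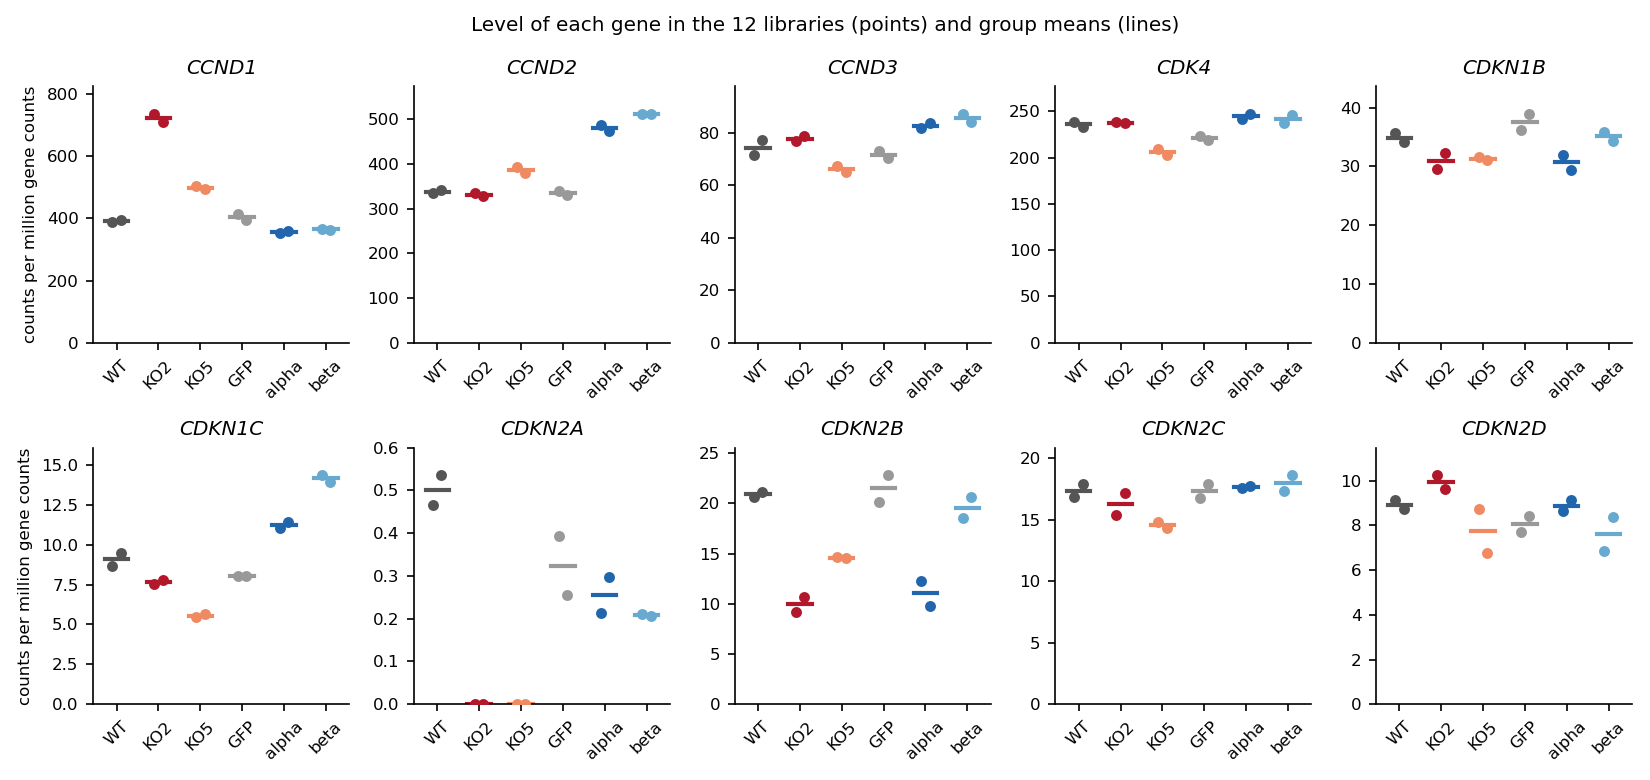
CPM (y axis, from 0, a scale of its own for each gene) of the 10 genes in the 12 libraries; points are libraries, lines are group means and the x axis gives the 6 groups. CCND1 is highest in KO2, CCND2 and CDKN1C are highest in the alpha and beta derivatives, CDKN2B is low in KO2 and alpha, and CDKN2A is at 0 in all 4 knockout libraries.

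CCND1, the D cyclin that responds to mitogens, was higher in both knockouts and slightly lower with both forms of PRDM1. It stood at 388 and 394 CPM in WT, 737 and 708 in KO2, 504 and 494 in KO5, 414 and 395 in GFP cells, 351 and 361 in alpha cells, and 365 and 363 in beta cells. In these bulk libraries less RNA per cell and fewer cells with the transcript cannot be told apart. The 6 groups did not overlap, and the order from lowest to highest was alpha, beta, WT, GFP, KO5 and KO2. Fold changes are given on the log2 scale with their standard error, tested with edgeR's quasi-likelihood test in 1 fit over all libraries and adjusted by Benjamini-Hochberg over all 12858 genes. KO2 exceeded WT by 0.92 ± 0.03 (adjusted p = 3.14e-30, a fold of 1.90) and KO5 exceeded WT by 0.38 ± 0.03 (adjusted p = 2.77e-15). The direct comparison put KO5 below KO2, with a KO5 minus KO2 difference of -0.54 ± 0.03 (adjusted p = 2.77e-21). The differences from GFP were small, -0.18 ± 0.03 with alpha (adjusted p = 5.24e-06) and -0.14 ± 0.03 with beta (adjusted p = 1.32e-04), and GFP did not pass against WT (adjusted p = 0.218).

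CCND2, the D cyclin gene known as a direct MYC target, rose with both forms of PRDM1 instead. Its levels were 335 and 341 CPM in WT, 335 and 329 in KO2, 393 and 379 in KO5, 340 and 330 in GFP cells, 488 and 475 in alpha cells, and 513 and 513 in beta cells. WT, GFP and KO2 lay together, KO5 lay above them, and the alpha and beta libraries were above all others. The differences from GFP were 0.53 ± 0.03 with alpha (adjusted p = 3.34e-20) and 0.62 ± 0.03 with beta (adjusted p = 6.69e-23). The difference alpha minus beta was -0.09 ± 0.03 (adjusted p = 0.0474), and this call was lost in 8 of 11 alternative settings, including without each alpha or beta library in turn. In the knockouts CCND2 was higher than WT in KO5 (0.22 ± 0.03, adjusted p = 1.65e-08) and did not pass in KO2 (adjusted p = 0.840). KO5 exceeded KO2 by 0.21 ± 0.03 (adjusted p = 3.70e-08).

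CCND3, the third D cyclin, moved less. It stood at 71.4 and 77.2 CPM in WT, 76.8 and 78.7 in KO2, 67.5 and 65.0 in KO5, 73.0 and 70.4 in GFP cells, 81.6 and 83.8 in alpha cells, and 87.4 and 84.3 in beta cells. The alpha and beta libraries were above all others and the KO5 libraries below all others. It rose by 0.21 ± 0.05 with alpha (adjusted p = 1.22e-04) and 0.27 ± 0.05 with beta (adjusted p = 2.68e-06). In KO2 the difference from WT, 0.10 ± 0.04, did not pass (adjusted p = 0.0526) but passed in 4 of 11 alternative settings, the GC trend (0.10, adjusted p = 0.0238) among them. In KO5 CCND3 fell by 0.14 ± 0.04 (adjusted p = 0.00337). The KO5 call was lost when a trend with transcript GC content was removed (-0.04, adjusted p = 0.380), and without WT replicate 2 (-0.08, adjusted p = 0.183) or KO5 replicate 2 (-0.11, adjusted p = 0.0850).

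A RefSeq window of CCND3 is shown because it is the 1 window among those of the members that held the letters GAAAGT, the core bound by PRDM1. RefSeq promoter windows (GRCh38.p14), cut to the 250 bases before the start, were found for 7 of the 10 genes (CCND3, CDK4, CDKN1B, CDKN2A, CDKN2B, CDKN2C and CDKN2D), with 12 windows in all. GAAAGT on either strand was in 1 of the 12 and in 11.4% of 35116 windows of the same length over all genes. TGANTCA, an AP-1 motif (6.57% of all windows), and GCGGGAAA, an E2F motif (1.39%), were in none of the 12. The window belongs to an inner start of CCND3, at chr6:41941849-41942058 on the minus strand, and is printed without the 40 bases next to the start that GENCODE v29 annotates as untranslated. Capitals mark GAAAGT, which begins 207 bases before the start.
CCND3 inner start: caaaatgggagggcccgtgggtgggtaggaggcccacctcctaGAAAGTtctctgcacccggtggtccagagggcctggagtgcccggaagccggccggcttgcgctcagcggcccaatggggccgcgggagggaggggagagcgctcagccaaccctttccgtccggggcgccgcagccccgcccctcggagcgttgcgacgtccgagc
A match of letters is a description and shows no binding.

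The balance of CCND1 and CCND2 differed between the groups. With alpha and beta CCND1 fell and CCND2 rose, in KO2 CCND1 alone passed, and in KO5 both rose. Per transcript length the CCND1 to CCND2 ratio was 1.74 and 1.74 in WT, 3.31 and 3.24 in KO2, 1.93 and 1.96 in KO5, 1.83 and 1.80 in GFP cells, 1.08 and 1.14 in alpha cells, and 1.07 and 1.06 in beta cells. The knockout libraries all had higher ratios, and the alpha and beta libraries lower ratios, than every WT and GFP library. This ratio is taken within a library, so it does not depend on how libraries are scaled, and it was not tested by itself.

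The summed D cyclin level was 174 ± 3.26 CPM per kb in WT, 251 ± 4.82 in KO2, 203 ± 3.90 in KO5, 176 ± 4.99 with GFP, 191 ± 0.750 with alpha and 200 ± 1.16 with beta (mean ± SD, n = 2 libraries each). CCND1 made up 52.2% of it in WT and 66.7% in KO2, against 43.2% with alpha and 42.4% with beta. CCND2 made up 29.5% in GFP, 20.4% in KO2, 38.8% with alpha and 39.7% with beta. The sum was thus higher in both overexpression groups than in GFP although CCND1 was lower there, as CCND2 and CCND3 were higher.

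**Figure D2:**
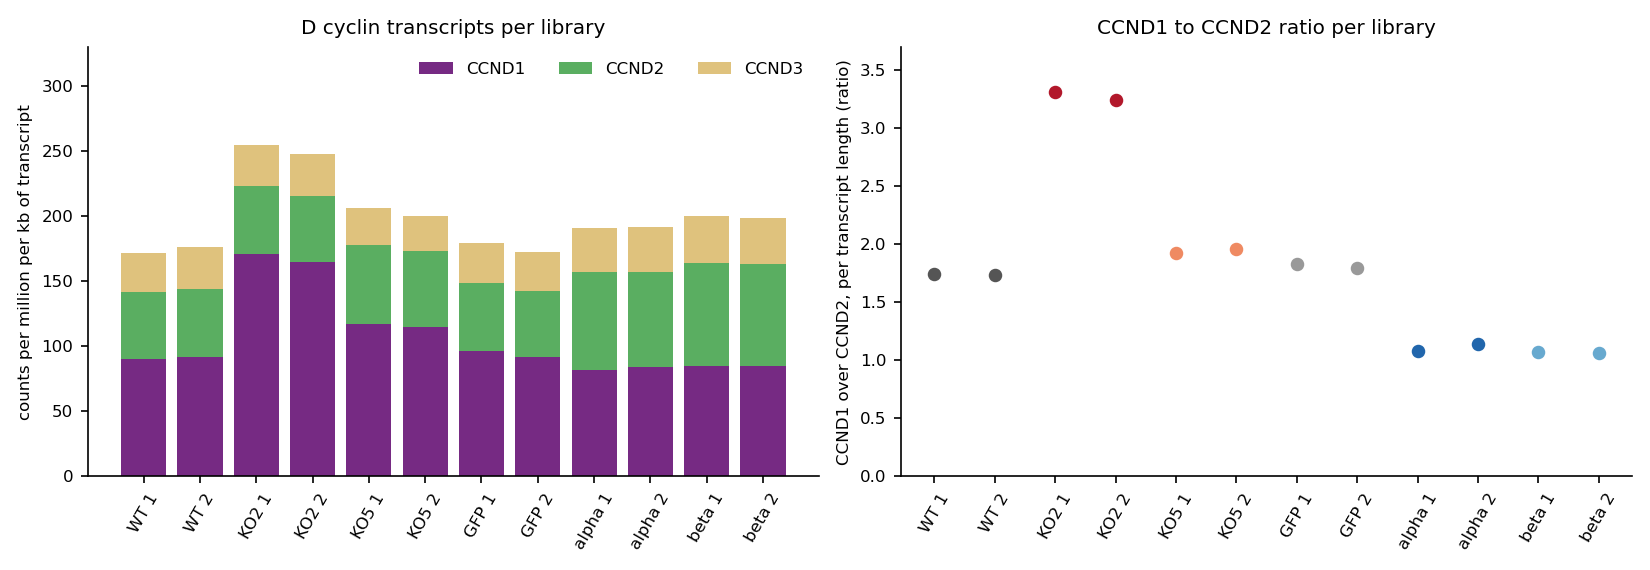
Left, D cyclin levels in each library in CPM per kb of transcript, stacked by gene; right, the CCND1 to CCND2 ratio per transcript length in each library, coloured by group. The ratio is 3.31 and 3.24 in KO2 and between 1.06 and 1.14 in the alpha and beta libraries, with WT, GFP and KO5 between 1.74 and 1.96.

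CDK4, the kinase partner of the D cyclins, varied least of the 10 over the groups, with group means that spanned 0.23 log2 units. It stood at 238 and 234 CPM in WT, 238 and 237 in KO2, 209 and 203 in KO5, 223 and 219 in GFP cells, 242 and 248 in alpha cells, and 237 and 246 in beta cells. KO5 was the lowest group and GFP the next, and WT, KO2, alpha and beta lay close together with neighbours overlapping above WT. CDK4 was higher than GFP by 0.15 ± 0.04 with alpha (adjusted p = 1.11e-04) and 0.14 ± 0.04 with beta (adjusted p = 4.18e-04), and it fell by 0.16 ± 0.03 in KO5 against WT (adjusted p = 1.39e-05). GFP was also below WT (-0.09 ± 0.03, adjusted p = 0.0325), so that the alpha and beta levels exceed their GFP control while they stand near WT. That GFP call was lost in 9 of 11 alternative settings, including without each WT or GFP library in turn. CDK4 overlaps its neighbour TSPAN31 in the annotation, and whether reads were counted by strand is not given in the sources used here.

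CDKN1C and CDKN1B, which encode p57 and p27, went apart. CDKN1C, a maternally expressed gene of the imprinted 11p15 region, stood at 8.68 and 9.49 CPM in WT, 7.55 and 7.78 in KO2, 5.46 and 5.63 in KO5, 8.03 and 8.07 in GFP cells, 11.03 and 11.4 in alpha cells, and 14.4 and 13.9 in beta cells. The groups did not overlap and ran from KO5 through KO2, GFP, WT and alpha to beta. CDKN1C rose by 0.48 ± 0.11 with alpha (adjusted p = 1.06e-04) and 0.82 ± 0.10 with beta (adjusted p = 8.94e-10). Alpha minus beta was -0.34 ± 0.10 (adjusted p = 0.0181), a call that was lost in DESeq2 (adjusted p = 0.155) and without each alpha or beta library in turn. In KO5 it fell by 0.69 ± 0.10 (adjusted p = 5.68e-08) and its value was still -0.44 once the GC trend was removed. The KO2 difference of -0.22 ± 0.09 (adjusted p = 0.0416) was lost in 8 of 11 settings, including without WT replicate 2 (-0.15), KO2 replicate 1 (-0.19) or KO2 replicate 2 (-0.24).

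CDKN1B had 35.6 and 34.2 CPM in WT, 29.6 and 32.3 in KO2, 31.5 and 31.1 in KO5, 36.2 and 39.0 in GFP cells, 32.0 and 29.4 in alpha cells, and 35.9 and 34.3 in beta cells. The alpha, KO2 and KO5 libraries overlapped at the low end and GFP was highest. With alpha it fell by 0.28 ± 0.06 (adjusted p = 2.35e-04). With beta the value was -0.09 ± 0.06 (adjusted p = 0.219), but the difference between the forms, -0.19 ± 0.06, did not pass (adjusted p = 0.073), so the forms are not shown to differ. KO2 was below WT, at -0.14 ± 0.05 (adjusted p = 0.0367), which was lost without WT replicate 1 (-0.11), WT replicate 2 (-0.17) or KO2 replicate 1 (-0.07) and in DESeq2 (-0.14, adjusted p = 0.189). The KO5 value, -0.13 ± 0.05, was close to it and did not pass (adjusted p = 0.051), but passed in 4 of 11 alternative settings, including the GC trend (-0.16, adjusted p = 0.0123).

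CDKN2B, which encodes p15 and is known as a gene induced by TGF-beta through SMAD proteins, was the member that set the forms of PRDM1 apart. It stood at 20.7 and 21.1 CPM in WT, 9.19 and 10.7 in KO2, 14.7 and 14.6 in KO5, 20.2 and 22.8 in GFP cells, 12.3 and 9.77 in alpha cells, and 18.5 and 20.6 in beta cells. KO2 and alpha overlapped at the bottom, KO5 came next, and beta, WT and GFP lay together near the top. With alpha it fell by 0.95 ± 0.09 against GFP (adjusted p = 2.13e-11). With beta the value was -0.12 ± 0.08 (adjusted p = 0.238), and the test of the difference between the forms gave -0.82 ± 0.10 for alpha minus beta (adjusted p = 2.09e-08). CDKN2B also fell by 1.05 ± 0.08 in KO2 (adjusted p = 8.26e-15) and by 0.49 ± 0.08 in KO5 (adjusted p = 7.93e-07), and KO5 exceeded KO2 by 0.56 ± 0.09 (adjusted p = 9.39e-07). The 5 called differences kept their call and direction in each of the 11 alternative settings. The gene was thus lower than its own control in 3 of the 4 derivatives, the alpha derivative and both knockouts.

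CDKN2A, the neighbour of CDKN2B on 9p21, was scarce and was not detected in the knockouts. It had 17 and 30 counts in WT, 10 and 7 in GFP cells, 5 and 6 in alpha cells, 4 and 5 in beta cells, and 0 in all 4 KO2 and KO5 libraries. Taking 3 counts over the 2 libraries of a group as the floor, WT stood at 13.5 times the floor of KO2 and 9.93 times that of KO5. These values leave out the counting error of the WT counts. No p is given for the differences of the knockouts from WT, since the gene was tested only because of its counts in WT and GFP. With no count, a level of up to 0.105 CPM is still possible in the shallowest knockout library, and the WT libraries held 0.466 and 0.536 CPM. The WT to GFP ratio was 1.58 (95% exact binomial interval 0.892 to 2.94, counting error only). The ratio of GFP to alpha was 1.28 (interval 0.564 to 3.02) and that of GFP to beta 1.54 (interval 0.651 to 3.93). Each interval includes 1, so no difference beyond counting error is shown. These counts do not tell the transcripts that encode p16 from those that encode ARF, since both belong to CDKN2A.

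The antisense gene CDKN2B-AS1 overlaps both inhibitor genes. It had 44 counts over the 2 WT libraries, 24 in KO2 and 16 in KO5. The WT to knockout ratios were 1.58 (95% exact binomial interval 0.939 to 2.71) and 1.74 (0.964 to 3.31). Over the 2 libraries of each group it stood at 0.476 CPM in WT, 0.302 in KO2, 0.273 in KO5 and 0.321 with GFP. A level below that of WT was therefore not particular to the knockouts. CDKN2B-AS1 was thus still counted in the knockout libraries, unlike CDKN2A. MTAP, the metabolic enzyme gene beyond CDKN2A, was also present in both knockouts, at 184 CPM in KO2 and 218 CPM in KO5 against 170 CPM in WT.

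The windows before the starts of CDKN2B and of the distal, ARF-type start of CDKN2A are shown as 9p21 sequences of these genes. The window of the proximal CDKN2A start is not printed, because too little of it lies clear of bases annotated as untranslated. The CDKN2B window is at chr9:22009364-22009555 on the minus strand, printed without the 58 bases next to the start that are annotated as untranslated. The distal CDKN2A window is at chr9:21995325-21995574 on the minus strand (RefSeq, GRCh38.p14).
CDKN2B: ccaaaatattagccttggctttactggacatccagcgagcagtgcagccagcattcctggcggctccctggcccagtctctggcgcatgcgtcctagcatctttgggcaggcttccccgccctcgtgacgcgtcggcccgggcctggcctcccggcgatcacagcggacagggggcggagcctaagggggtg
CDKN2A distal start: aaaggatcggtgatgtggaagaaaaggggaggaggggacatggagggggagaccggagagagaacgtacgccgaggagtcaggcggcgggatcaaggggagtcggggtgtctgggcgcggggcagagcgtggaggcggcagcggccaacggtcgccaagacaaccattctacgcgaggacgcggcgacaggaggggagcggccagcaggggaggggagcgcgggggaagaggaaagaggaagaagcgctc
Neither holds any of the 3 motifs on either strand, so no letters are in capitals, which says only that those letters are not in these windows.

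CDKN2C (p18) and CDKN2D (p19), the INK4 genes of other chromosomes, varied little. CDKN2C ranged from 14.3 CPM in KO5 replicate 2 to 18.6 CPM in beta replicate 2. It fell in KO5 by 0.23 ± 0.07 (adjusted p = 0.00548), which was lost with the GC trend (-0.10, adjusted p = 0.270), without WT replicate 2 (-0.18) or KO5 replicate 2 (-0.20), and in DESeq2 (adjusted p = 0.0587). CDKN2D ranged from 6.75 CPM in KO5 replicate 2 to 10.3 CPM in KO2 replicate 1. For CDKN2D the difference KO5 minus KO2 was -0.37 ± 0.10 (adjusted p = 0.00166), and this was lost with the GC trend (-0.20, adjusted p = 0.0884) and without KO5 replicate 2 (-0.20, adjusted p = 0.169). Neither gene passed with alpha or beta.

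Read by comparison, alpha against GFP called 4 of the 10 members higher and 3 lower, beside 21.2% and 16.3% of all tested genes. Beta against GFP called 4 higher and 1 lower, beside 22.9% and 18% of all genes. The 4 that rose were CCND2, CCND3, CDK4 and CDKN1C in each case, and those 2 comparisons share the GFP libraries. Alpha minus beta called 3 members, all of them lower (CCND2, CDKN1C and CDKN2B), while 3.45% of all genes were higher and 2.79% lower, and DESeq2 called 1 member.

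KO2 against WT called 1 member higher (CCND1) and 4 lower (CDKN1B, CDKN1C, CDKN2B and, through the filter, CDKN2A), beside 15.1% and 14.9% of all genes. Of these 5, DESeq2 called 2, and gave no adjusted p for CDKN2A. KO5 against WT called 2 higher (CCND1 and CCND2) and 6 lower (CCND3, CDK4, CDKN1C, CDKN2B, CDKN2C and CDKN2A), beside 25.2% and 25.9%. The 2 knockouts share the WT libraries. CDKN2A is in both counts but supports neither, given how it entered the test.

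**Figure D3:**
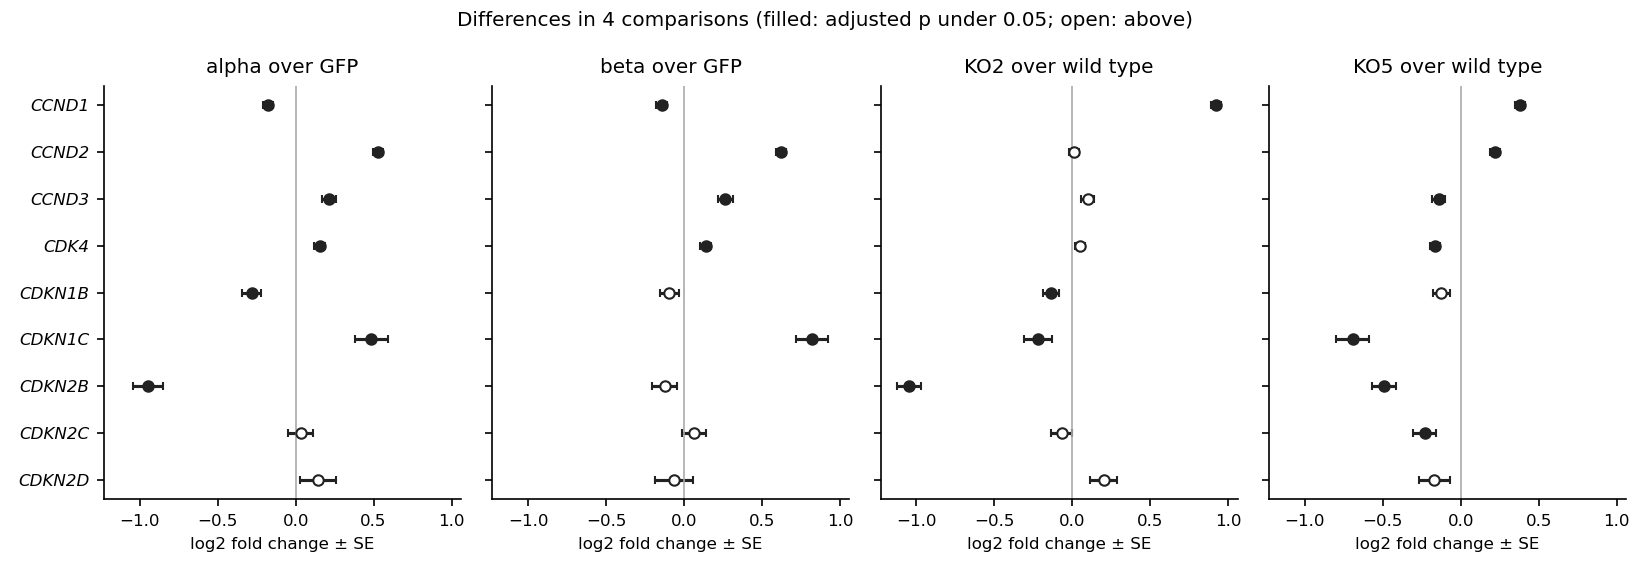
Log2 fold changes with standard errors (x axis) of 9 of the genes in the alpha and beta derivatives over GFP and in KO2 and KO5 over wild type; filled points passed at an adjusted p under 0.05 in edgeR. CDKN2A is left out because a fold cannot be given where a group has no counts. CCND1 lies right of 0 in the knockouts and left of 0 with alpha and beta, and CDKN2B is at -0.95 with alpha and -0.12 with beta.

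The knockout derivatives differed from each other in 7 of the 10 members, with 2 higher (CCND2 and CDKN2B) and 5 lower (CCND1, CCND3, CDK4, CDKN1C and CDKN2D) in KO5 than in KO2, beside 26.9% and 28.1% of all genes. CCND3 was at -0.24 ± 0.04 in this comparison (adjusted p = 3.33e-06), CDK4 at -0.21 ± 0.03 (adjusted p = 8.23e-08) and CDKN1C at -0.47 ± 0.11 (adjusted p = 1.07e-04). With the GC trend removed these still passed, at -0.15 for CCND3, -0.16 for CDK4 and -0.26 for CDKN1C. Across genes, the log2 differences moved with transcript GC content most in GFP against WT and in KO5 against WT or KO2. Spearman's rho was -0.52 for KO5 against WT, -0.42 for KO5 against KO2 and -0.67 for GFP against WT, against -0.07 for KO2 against WT, 0.18 for alpha, 0.14 for beta and 0.08 for overexpression against knockout (12122 genes, which are not independent replicates). CDKN1C (63.8% GC), CDKN2D (61.3%), CDKN2C (58.1%) and CCND3 (56.2%) are richer in GC than CCND2 (45.5%) and CDKN2B (44.6%). GFP against WT called 1 member, CDK4, lower, while 8.81% of all genes were higher and 10.2% lower.

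The mean of the alpha and beta groups minus the mean of KO2 and KO5 called 7 members higher and 1 lower, beside 31% and 27.7% of all genes. CCND1 was lower (-0.76 ± 0.02, adjusted p = 3.80e-33), and CCND2 (0.45 ± 0.02), CCND3 (0.21 ± 0.03), CDK4 (0.11 ± 0.02), CDKN1C (0.93 ± 0.07), CDKN2B (0.28 ± 0.07) and CDKN2C (0.20 ± 0.06) were higher. CDKN2A was at least 10.6-fold higher in the overexpression libraries (20 counts over 4 libraries) than in the knockout libraries, and supports nothing here either, as it entered the test through WT and GFP. For CDKN2B this mean joins unlike groups, since alpha lies with KO2 and beta with WT. Which libraries entered the authors' deposited tables is not given in the sources used here, and their table for alpha and beta jointly, which repeated the beta values exactly, was left out. The authors' deposited tables, which set each form against knockout, give CDKN2B -0.13 with alpha (adjusted p = 0.718) and 0.51 with beta (adjusted p = 0.0186). For CCND1 the authors' deposited tables give -0.68 with alpha and -0.65 with beta.

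The downstream axis was taken from fixed lists, and the counts of every list below are to be read beside the shares over all tested genes. With alpha 21.2% of all genes were higher and 16.3% lower, and with beta 22.9% and 18%. In KO2 15.1% were higher and 14.9% lower, and in KO5 25.2% and 25.9%. Of 20 genes of the RB and E2F axis, including the other G1 kinases and cyclins, 5 rose and 5 fell with alpha, 4 rose and 6 fell with beta, 6 rose and 1 fell in KO2, and 9 rose and 4 fell in KO5. CDKN1A, the p21 inhibitor and p53 target, rose by 0.69 ± 0.04 with alpha (adjusted p = 7.84e-20) and 0.69 ± 0.04 with beta (adjusted p = 1.41e-19), and by 0.19 ± 0.04 in KO2 and 0.54 ± 0.04 in KO5. CDK6, the other D cyclin kinase, fell by 0.38 ± 0.04 with alpha and 0.52 ± 0.04 with beta. E2F2, an activator E2F, fell by 0.42 ± 0.06 with alpha and 0.55 ± 0.06 with beta, and E2F5 fell by 0.45 ± 0.10 and 0.33 ± 0.10. In KO2 RB1, the retinoblastoma gene, fell by 0.24 ± 0.04 and CCNE1, cyclin E1, rose by 0.21 ± 0.05. Neither change was shared by KO5, where RB1 stood at 121 CPM against 102 in WT and CCNE1 at 39.4 against 44.2. CCNE1 stood at 56.8 CPM with alpha and 55.0 with beta, against 46.6 with GFP. In KO5 E2F1 fell by 0.46 ± 0.05 (-0.23 with the GC trend removed) and the repressor E2F7 rose by 0.45 ± 0.04. E2F7 also rose by 0.41 ± 0.04 with alpha, and stood at 117 CPM with alpha and 115 with beta against 89.2 with GFP.

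Among 14 E2F target genes of DNA replication, 4 rose and 8 fell with alpha, 3 rose and 7 fell with beta, 6 rose in KO2, and 1 rose and 9 fell in KO5. RRM2, a subunit of ribonucleotide reductase, rose by 0.46 ± 0.03 with alpha and 0.44 ± 0.03 with beta, and TYMS, thymidylate synthase, fell by 0.40 ± 0.04 and 0.54 ± 0.04. PCNA, the polymerase clamp, fell by 0.29 ± 0.03 with alpha and 0.18 ± 0.03 with beta. In KO2 the rises were small, 0.18 ± 0.03 for RRM2, 0.15 ± 0.03 for MCM3 and 0.13 ± 0.03 for PCNA. In KO5 CDT1, a replication licensing factor, fell by 0.56 ± 0.05, MCM5 by 0.26 ± 0.04 and TK1 by 0.26 ± 0.04. With the GC trend removed CDT1 was at -0.27 and MCM5 at -0.15, which still passed, and TK1 at -0.03, which did not (adjusted p = 0.587). GFP against WT, with no PRDM1 transgene, called 4 of these 14 genes lower and 1 higher, beside 10.2% and 8.81% of all genes. GFP cells held 51.7 CPM of CDT1 (64.4 in WT), 142 of MCM5 (159 in WT) and 85.9 of TK1 (95.4 in WT).

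Among 9 genes of D cyclin and p27 turnover, 1 rose and 1 fell with alpha, 2 rose and 3 fell with beta, 1 rose in KO2, and 2 rose and 2 fell in KO5. CKS1B, the cofactor of SKP2 in p27 degradation, fell by 0.25 ± 0.04 with alpha and 0.36 ± 0.04 with beta and rose by 0.13 ± 0.03 in KO2. FBXW7, the ubiquitin ligase subunit for cyclin E, rose by 0.49 ± 0.05 in KO5, and UBAC1, part of the KPC ligase for p27, fell by 0.43 ± 0.04. GSK3B, a kinase that marks cyclin D1 for degradation, rose by 0.11 ± 0.04 with alpha and 0.20 ± 0.04 with beta, of which the alpha call was lost in 5 of 11 alternative settings, including without GFP replicate 2 or either alpha library.

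Of 10 Polycomb and demethylase genes known to act at the INK4 locus, 3 rose and 5 fell with alpha, 3 rose and 3 fell with beta, 3 rose in KO2, and 2 rose in KO5. BMI1, a Polycomb repressor of CDKN2A, rose by 0.61 ± 0.14 with alpha and 0.74 ± 0.13 (0.48 without beta replicate 2) with beta. KDM6B, the H3K27 demethylase, rose by 0.38 ± 0.07 and 0.31 ± 0.07 (0.19 for beta with the GC trend removed). EZH2, the Polycomb methyltransferase, rose by 0.13 ± 0.04 in KO2, and EED, its partner, rose by 0.23 ± 0.04 in KO5.

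Of 8 regulators that carry TGF-beta and FOXO signals to these genes, 1 rose and 3 fell with alpha, 1 rose and 3 fell with beta, 2 rose and 1 fell in KO2, and 2 rose and 1 fell in KO5. SMAD3, a receptor-activated SMAD, fell by 1.08 ± 0.05 with alpha (adjusted p = 2.52e-25) and 0.83 ± 0.05 with beta (adjusted p = 2.94e-21), from 100 CPM with GFP to 47.1 and 56.1 CPM. Its partner SMAD4 fell by 0.45 ± 0.05 and 0.26 ± 0.05, and FOXO1 rose by 0.48 ± 0.06 and 0.51 ± 0.06. SMAD3 and CDKN2B both fell with alpha, whereas with beta SMAD3 fell and CDKN2B did not pass. In KO2, where CDKN2B fell by 1.05 ± 0.08, SMAD3 stood at 96.8 CPM against 96.1 CPM in WT. A link between SMAD3 and CDKN2B was not tested. In KO2 and KO5 MYC rose by 0.22 ± 0.03 and 0.16 ± 0.03, and SMAD3 fell by 0.27 ± 0.04 in KO5.

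Near CDKN2A and CDKN2B, MTAP fell by 0.52 ± 0.04 with alpha and 0.43 ± 0.04 with beta. It rose by 0.14 ± 0.03 in KO2 and 0.38 ± 0.03 in KO5 (0.26 with the GC trend removed), opposite in sign to CDKN2B there. The KO2 rise is not particular to a knockout, since MTAP stood at 185 CPM in GFP cells, 184 in KO2 and 170 in WT. DMRTA1 and IFNE had too few counts to be tested. Of 8 tested genes near CDKN1C on 11p15, 4 rose with alpha, 6 rose with beta, 2 rose in KO2, and 1 rose and 5 fell in KO5. In KO5, where CDKN1C fell, the transporter gene SLC22A18 fell by 1.30 ± 0.31 (1.26 to 0.492 CPM) and the imprinted noncoding gene H19 by 1.28 ± 0.16 (6.14 to 2.47 CPM). Over the 11 alternative settings SLC22A18 ran from -1.66 to -0.99 and H19 from -1.50 to -1.02. GFP against WT, with no PRDM1 transgene, also called 4 of the same 8 genes lower and 0 higher. KCNQ1, the potassium channel gene, rose by 0.51 ± 0.09 in KO2.

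**Figure D4:**
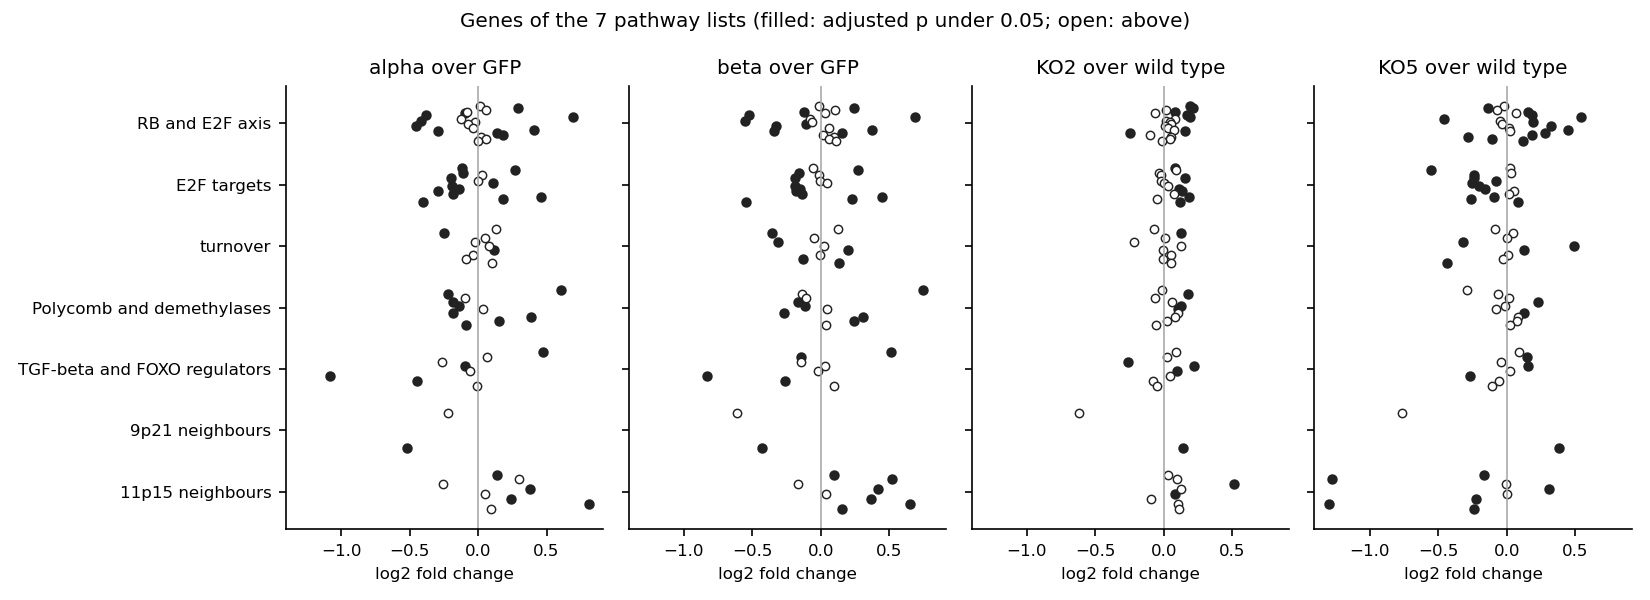
Log2 fold changes (x axis) of every tested gene in 7 pathway lists (rows) in 4 comparisons; each point is a gene, filled where it passed at an adjusted p under 0.05 in edgeR, and the vertical offset within a row only separates the points. SMAD3 is the leftmost point of its row with alpha (-1.08) and beta (-0.83), and SLC22A18 and H19 lie at -1.30 and -1.28 in KO5.

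For the 4 members whose group means spanned more than 1 log2 unit, the 3 genes with the most similar course over the 12 libraries were taken from 10038 genes of at least 5 CPM. The measure of likeness was the root mean square (RMS) difference of log2 CPM after each gene was centred. CRIM1 was nearest to CCND1 (RMS 0.12), with 215 CPM in KO2 against 147 CPM in WT and 129 CPM with alpha, and RAB3A (0.14) and KCNQ1 (0.15) followed. CDKN1C was nearest to UAP1L1 (0.11), PPP1R18 (0.13) and PHYH (0.13), each lowest in KO5 and highest with beta. CDKN2B had no close match, with GOT1 (0.28), MYEOV (0.29) and CTH (0.30) nearest, and CDKN2A still less so, with HSD3B7 at 0.46, ZNF540 at 0.62 and ZNF790 at 0.69. HSD3B7 stood at 8.80 CPM in WT, 1.99 in KO2 and 1.595 in KO5. The course of CDKN2A rests on 0 counts in the knockouts and few elsewhere, so its distances depend on the prior count of 2. Since CDKN2A also entered through WT and GFP, these distances do not support a likeness to any gene.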

How the data were processed

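Polyadenylated RNA of 12 RKO libraries, 2 in each of 6 groups taken from the labels, was prepared with a stranded kit per the labels' protocols. Build hg19 and the tools TopHat, Bowtie2 and Cufflinks are named per the submitters' processing notes. Their versions and roles, the read counter and its use of strand are not given in the sources used here. The authors deposited raw counts per gene symbol, with no normalization. Entries that name no gene were left out, namely reads without a feature (9.13% to 10.8%) and ambiguous reads (1.66% to 1.75%). Per the file headers, the authors' deposited tables of each form against knockout hold log2 fold changes with their errors, p-values and adjusted p-values, and the mean of normalized counts, another column by the authors.

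Tests used edgeR 4.0.16 (R 4.3.3). Genes were filtered by filterByExpr over the 6 groups, scaled by TMM (the trimmed mean of M values), fitted with glmQLFit (robust, a mean per group, all 12 libraries) and tested with glmQLFTest in 8 comparisons at a Benjamini-Hochberg adjusted p of 0.05. The common biological coefficient of variation was 2.18%. Standard errors are Wald errors in which a quasi-likelihood dispersion under 1 was set to 1. CPM scales a library to 1000000 gene counts, and log2 CPM used a prior count of 2. Transcript length and GC content came from the longest coding transcript in GENCODE v29 (94.3% of tested genes). Ratios of low counts carry 95% exact binomial intervals, and the floor was 3 counts. The scripts were tested on simulated data.

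All 10 members are named throughout, and from each pathway list up to 3 of the largest called differences in the alpha, beta, KO2 and KO5 comparisons, of which the text gives most. Members and lists were chosen with earlier results of these data known. As alternatives, each library was left out in turn, a GC trend, a replicate block or both were added, libraries outside a comparison were dropped, the low-count filter was omitted, size factors replaced TMM, the Wald test of DESeq2 1.42.0 replaced edgeR, and the authors' deposited tables were read.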

Additional observations from a re-analysis of the deposited data

Results flagged for a closer look

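In 3 members the response to alpha differed from the response to beta by the test of the difference itself (edgeR's quasi-likelihood test, alpha minus beta on the log2 scale). They were CDKN2B at -0.82, CDKN1C at -0.34 and CCND2 at -0.093, beside 3.45% of all tested genes higher and 2.79% lower. Of the 3 members, the CDKN2B difference alone kept its call in each of the 11 alternative settings. The beta derivative held more PRDM1 transcript than the alpha derivative (1175 and 1176 CPM against 487 and 480 CPM), and the part of that level in these differences was not tested.

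In 7 members the knockout derivatives differed from each other by the same test (KO5 minus KO2). The same comparison called 26.9% of all tested genes higher and 28.1% lower, so such calls are not particular to the members. CCND1 was at -0.54, CDKN1C at -0.47, CDKN2D at -0.37, CCND3 at -0.24 and CDK4 at -0.21, while CDKN2B was at 0.56 and CCND2 at 0.21. All of these except CDKN2D kept their call in each of the 11 alternative settings. CCND1 and CDKN2B lay farther from WT in KO2, and CDKN1C farther in KO5.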

How the results depend on the processing

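Of 44 called differences of the members, 32 kept their call and direction in every alternative run that gave them an adjusted p. Both counts include CDKN2A in KO2 against WT, in KO5 against WT and in overexpression against knockout. Those of CDKN2A support nothing, given how it entered the test. DESeq2 gave no adjusted p for it in KO2, nor did the authors' deposited tables. Among the 44, 1 value changed sign, that of CDKN2B in overexpression against knockout in the authors' deposited table of alpha (-0.13). Calls of CCND3, CDK4 and CDKN2C in that comparison were absent from both authors' deposited tables. Of the 71 pathway differences that the naming rule selects, part of which the text gives, 51 kept their call in every alternative and none changed sign. Another 30 uncalled member differences, not given as fold changes, changed sign in 37 of 335 alternative values, none of them past the threshold. Of these, 4 passed the threshold in 1 alternative each, namely CDKN2D in KO2 (GC trend), in KO5 (without KO5 replicate 1) and in overexpression against knockout (without KO5 replicate 2), and CDKN2C in KO5 against KO2 (without KO2 replicate 1).

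For alpha against beta, DESeq2 called 1 member and 442 genes, and leaving out a library gave 1 to 1 member and 395 to 495 genes, against 3 members and 802 genes. For KO2 against WT, DESeq2 called 2 members and 2425 genes, and leaving out a library gave 3 to 4 members and 2563 to 3150 genes, against 5 and 3857. For GFP against WT, which called 1 member and 2444 genes, the member was lost (0) with DESeq2 size factors, the DESeq2 Wald test, only the compared groups, the GC trend, and the replicate block with the GC trend. There 1477 genes were called by DESeq2, 140 with the GC trend, 136 with the replicate block and the GC trend, and 645 to 2110 when a library was left out (0 to 0 members). DESeq2 also moved the share of higher calls among these genes from 46.4% to 57.5%.

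Replicate numbers did not pair the libraries (correlations of same-numbered deviations from -0.065 to 0.056), and with the replicate block alone 4 members were called in KO2 against WT in place of 5 (CDKN1C was lost, at -0.21), and the counts of members in the other 7 comparisons were the same. Counts of 0 and of a few reads limit CDKN2A, CDKN2B-AS1 and PRDM1. With 2 libraries a group, a lone remaining library is assumed to vary like the other groups.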
